A study of Rattus norvegicus with 42 samples.

Results

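Gene expression in pure rat liver was set against that in pure rat brain. The comparison rests on 6 of the 42 arrays of the study, chosen by their tissue labels alone: 3 arrays of undiluted liver and 3 arrays of undiluted brain. The other arrays hold undiluted lung (3 arrays) and 11 mixtures of labelled cRNA of the 3 tissues (3 arrays each). Each array is an Affymetrix rat GeneChip, on which biotin-labelled RNA binds short DNA probes and a probe set of several probes reads 1 transcript. Liver, brain and lung are described as coming from 1 untreated rat of 9 to 12 weeks, and liver and brain as having been snap frozen. The sources used here do not give strain, sex or brain region, and no sample carries an engineered allele or a treatment. The 3 arrays of a tissue are technical replicates of the same RNA, so a p-value reflects array-to-array spread and says nothing about differences between animals.

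The liver is built mainly of hepatocytes, which make most plasma proteins, clear drugs and ammonia, form bile acids and release glucose. Between the hepatocytes lie fenestrated sinusoidal endothelial cells, the resident macrophages called Kupffer cells, stellate cells and bile duct cells. The brain holds neurons, which signal through ion channels and synapses, the myelin-forming oligodendrocytes, astrocytes and the resident macrophages called microglia, and its vessels form a tight barrier against the blood.

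Xist and Eif2s3y, picked after their values were seen, did not match the statement that all tissues came from 1 animal. Xist, the RNA that coats the inactive X chromosome of female cells, read 11.11, 11.11 and 11.06 in liver, against 11.17, 11.31 and 11.27 in brain on its brightest probe set, and 2.84, 2.91 and 2.88 in lung (log2 levels). Eif2s3y, a gene of the Y chromosome, read 2.94, 3.62 and 2.82 in liver, against 2.41, 2.63 and 2.41 in brain, and 8.92, 8.99 and 9.01 in lung. Uty, also Y-linked, did not separate lung in this manner on its brighter probe set, with 8.88 in liver, 7.88 in brain and 8.30 in lung. Its other probe set had 3.96, 3.32 and 3.22 in the same order, Sry 3.89, 3.34 and 4.24, and Tspy1 3.08, 2.72 and 2.74. These dim levels lie between 2.39 and 4.64, the range on the liver and brain arrays of probe sets without a target in rat RNA. They are thus not told from background and cannot separate the tissues. Liver and brain thus shared a high Xist and a low Eif2s3y level, whereas lung had the reverse for these genes, and lung levels are given below only beside those of the other tissues. Cyp2c12, the P450 that female rats express in liver, read 13.18, 13.09 and 13.18 in liver, against 7.11, 7.04 and 7.15 in brain, and Cyp2c11, its male counterpart, stood at 4.20 in liver and 3.59 in brain.

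The deposited values are RMA levels on a log2 scale, in which a difference of 1 is a 2-fold change. Differences are given as liver minus brain with the standard error of the fit, and a gene was called when it differed at least 2-fold with an adjusted p under 0.05 (limma over all 42 arrays, Benjamini-Hochberg adjustment over 31042 probe sets). The fold limit alone decided the calls: every probe set past 2-fold also passed the p limit, with a largest adjusted p of 7.49e-06. In 1 called gene, the resistin-like gene Retnla, the arrays of the tissues overlapped (6.66, 6.54 and 5.42 in liver, against 5.53, 4.79 and 5.16 in brain). In all other called genes they did not, but a 2-fold limit leaves little room for overlap at a small spread between arrays. The share without overlap over all genes is not given, so this is no support for the calls. Of 31042 probe sets, 33.5% were called, 14.6% as higher in liver and 18.9% as higher in brain. With 1 probe set for each of 14217 named genes, 39.3% were called, 19.3% (2742) as higher in liver and 20.0% (2842) as higher in brain. Those last shares are the background for every count of list members below.

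The direction of small differences depended on how the arrays were scaled. The median probe set was 0.18 higher in liver as deposited, 0.42 higher after centring each array on its median, 0.12 higher after a repeated quantile normalization and 0.65 lower (a difference of -0.65) after a curve through the hybridisation controls, which were spiked into each array. The share of calls that were higher in liver was 43.7% as deposited, and 57.3%, 49.2% and 16.6% under those scalings. Subtracting the 5th percentile as background gave 0.00 and 43.7%. Below its faintest control, bioB, the curve shifts all levels of an array by the same amount. The bioB level was 8.58 to 8.63 in liver and 7.64 to 7.84 in brain, so differences at those levels were shifted toward brain. The upper quartile of every liver and brain array (7.27 to 7.52) lay below bioB. This shift enters every count under all scalings. Genes called in the same direction under the deposited and all 4 other scalings made up 10.6% (liver, 1501 genes) and 16.5% (brain, 2351 genes) of all named genes, and where a list's count printed below drops by more than 1 gene under this stricter rule the number is given.

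Replicate arrays correlated at 0.992 in liver and 0.996 to 0.997 in brain across probe sets, and the median SD between arrays was 0.12 in liver and 0.09 in brain. Array medians were 5.48 in liver and 5.71 to 5.74 in brain. The actin control read 1.21 to 1.36 higher at its 3′ than its 5′ end in liver and 1.59 to 1.64 higher in brain. For the GAPDH control the 3′ minus 5′ difference was -0.09 to -0.05 in liver and -0.19 to -0.08 in brain. Such differences reflect RNA integrity and labelling, whose part in the differences between tissues was not tested. The array gives no detection call. The 27 probe sets for bacterial genes that have no target in rat RNA read between 2.39 and 4.64 on the liver and brain arrays, with a 95th percentile of 3.48. Where the lower tissue averaged under 3.48, its level is not told from background, and the fold is given as at least the ratio of the higher tissue to 3.48. This bound was set after the values were seen, and it applies to 322 of the called genes. A lower level between 3.48 and 4.64 also lies within the range of the bacterial probe sets. The fold printed for such a gene is a ratio of RMA levels and may likewise be only a lower bound. Levels of different probe sets cannot be set against each other.

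**Figure D1:**
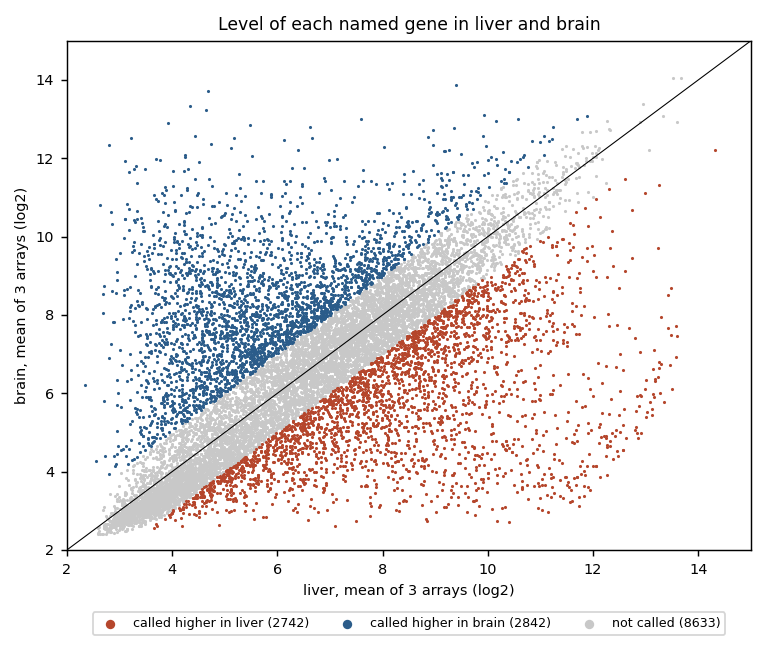
Mean level of each of 14217 named genes in liver (horizontal axis, log2, 3 arrays) and brain (vertical axis, log2, 3 arrays), coloured by call, with the line of equal level. The 2742 genes called higher in liver lie below the band of uncalled genes and the 2842 called higher in brain above it.

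The largest differences toward liver were in genes of detoxification, steroid handling and plasma protein synthesis. Sult1b1, a sulfotransferase for thyroid hormones and phenols, read 11.75, 11.74 and 11.74 in liver, against 2.92, 3.23 and 3.16 in brain, a difference of 8.64 ± 0.06 in RMA levels (limma, adjusted p = 3.91e-44) and at least 308-fold against background. Serpina6, the corticosteroid-binding globulin of plasma, read 11.96, 11.91 and 11.95 in liver, against 3.60, 3.35 and 3.61 in brain, and Slc2a2, the hepatocyte glucose transporter GLUT2, read 11.13, 11.17 and 11.15 in liver, against 2.89, 2.67 and 3.32 in brain. In each case all brain arrays read under 4, while the liver arrays were at the upper end of the scale. Hsd17b6, which oxidises androgen metabolites, was 328-fold higher in liver, the mannose-binding lectin gene Mbl2 at least 271-fold, the proteinase inhibitor Mug1 at least 276-fold, Serpina3n 314-fold, Ugt2b35 309-fold, the amylase gene Amy1 at least 307-fold and Kng2l1, of the kininogen family, at least 326-fold.

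The largest differences toward brain were in myelin, synaptic and glial genes. Mobp, a protein of compact myelin, read 2.61, 2.80 and 2.99 in liver, against 12.34, 12.30 and 12.41 in brain, a difference of -9.56 ± 0.07 in RMA levels (limma, adjusted p = 1.13e-43) and at least 470-fold against background. Snap25, the SNARE protein of transmitter release, read 4.39, 4.28 and 4.34 in liver, against 13.33, 13.35 and 13.32 in brain, and Ptgds, the prostaglandin D synthase of meninges and oligodendrocytes, read 3.76, 4.01 and 3.99 in liver, against 12.85, 12.92 and 12.93 in brain. No array of one tissue came near the range of the other. The neuronal calcium sensor Vsnl1 was at least 527-fold higher in brain, Mbp, the basic protein of myelin, 523-fold, the vesicular amino acid transporter Slc6a17 at least 351-fold, Cpe, which trims peptide hormones, 384-fold, the dendritic microtubule protein Map2 at least 320-fold, the astrocyte water channel Aqp4 at least 288-fold and Zcchc18 at least 304-fold. The RMA difference passed 6 units in 244 probe sets higher in liver and 189 higher in brain.

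**Figure D2:**
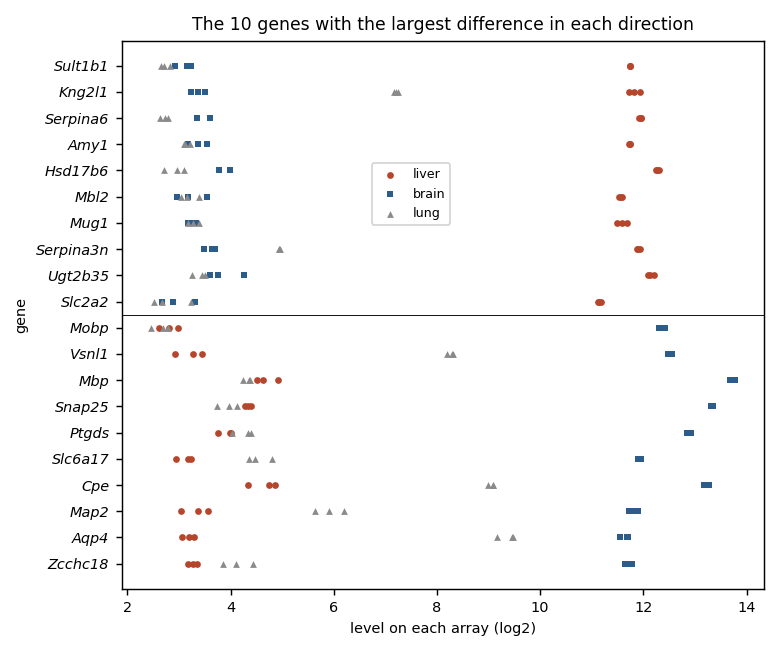
Level of the 10 genes with the largest difference toward liver (upper rows) and toward brain (lower rows) on each of the 3 liver, 3 brain and 3 lung arrays (log2). The 3 arrays of a tissue lie close together, and the liver and brain means are over 8 units apart in every row, while lung lies well above the lower tissue for Kng2l1, Vsnl1, Cpe, Map2 and Aqp4.

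The promoters of the most liver-biased genes had the lowest CpG content, a description of classes that the expression values defined. Genes at least 16-fold higher in liver made up 3.25% of all named genes and those at least 16-fold higher in brain 3.36%, both by their RMA difference. Promoter windows of 300 bases, from 250 before to 50 after the first listed start in RefSeq's GRCr8 annotation, were matched by symbol or gene ID to 11700 of the 14217 genes. A ratio of observed to expected CpG near 1 marks the CpG islands of widely used genes. Its median was 0.31 in the 382 promoters of genes at least 16-fold higher in liver (quartiles 0.18 and 0.51), 0.69 in those 2-fold to 16-fold higher in liver and 0.74 in the 7190 of uncalled genes (quartiles 0.46 and 0.90). Genes 2-fold to 16-fold higher in brain had 0.76, and the 370 at least 16-fold higher in brain had 0.68 (quartiles 0.45 and 0.84). The lowest median of the 5 classes was that of the strongly liver-biased one.

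Promoters of 6 genes are shown because they hold the letters of a motif for a regulator known in 1 of the tissues, and they were chosen with the expression values known. HNF1 and HNF4 are hepatocyte transcription factors, and the RE1 element is bound by REST, which silences neuronal genes outside the nervous system. The HNF1 motif was searched as GTTAAT followed by any base and ATT, the HNF4 motif as CAAAGTCCA and the left part of RE1 as TTCAGCACC, each on both strands, and capitals mark the match. All 6 windows are on the minus strand of GRCr8 and are printed 5′ to 3′ in the direction of transcription. They lie at chr8:80516236-80516535 (Lipc, hepatic lipase), chr1:50915357-50915656 (Plg, plasminogen), chr5:68656088-68656387 (Baat, which joins bile acids to amino acids), chr12:14398754-14399053 (Cyp3a23-3a1, a drug-oxidising P450), chr9:88256817-88257116 (Scg2, a secretory granule protein) and chr5:130367614-130367913 (Elavl4, a neuronal RNA-binding protein).
Lipc, HNF1: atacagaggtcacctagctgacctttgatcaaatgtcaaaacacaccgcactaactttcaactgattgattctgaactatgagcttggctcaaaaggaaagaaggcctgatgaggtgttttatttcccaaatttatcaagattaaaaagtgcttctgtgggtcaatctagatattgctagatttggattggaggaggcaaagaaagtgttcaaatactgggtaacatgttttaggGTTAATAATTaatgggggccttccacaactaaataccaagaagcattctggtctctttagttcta
Plg, HNF1: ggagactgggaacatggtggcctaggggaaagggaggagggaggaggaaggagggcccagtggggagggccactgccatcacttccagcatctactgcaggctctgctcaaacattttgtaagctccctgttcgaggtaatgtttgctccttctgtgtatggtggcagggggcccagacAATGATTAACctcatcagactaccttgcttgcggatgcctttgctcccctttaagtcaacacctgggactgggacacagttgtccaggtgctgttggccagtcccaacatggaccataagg
Baat, HNF4: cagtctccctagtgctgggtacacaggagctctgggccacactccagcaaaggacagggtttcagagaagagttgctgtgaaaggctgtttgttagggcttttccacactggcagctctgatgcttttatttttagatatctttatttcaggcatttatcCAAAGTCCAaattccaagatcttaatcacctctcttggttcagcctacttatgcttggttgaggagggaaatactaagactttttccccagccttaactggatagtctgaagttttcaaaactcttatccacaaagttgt
Cyp3a23-3a1, HNF4: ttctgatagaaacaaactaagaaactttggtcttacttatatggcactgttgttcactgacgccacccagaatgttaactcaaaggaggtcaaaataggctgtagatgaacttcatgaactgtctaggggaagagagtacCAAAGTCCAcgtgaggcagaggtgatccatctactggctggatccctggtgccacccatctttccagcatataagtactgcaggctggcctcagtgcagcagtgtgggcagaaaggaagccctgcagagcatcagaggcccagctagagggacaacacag
Scg2, RE1 left part: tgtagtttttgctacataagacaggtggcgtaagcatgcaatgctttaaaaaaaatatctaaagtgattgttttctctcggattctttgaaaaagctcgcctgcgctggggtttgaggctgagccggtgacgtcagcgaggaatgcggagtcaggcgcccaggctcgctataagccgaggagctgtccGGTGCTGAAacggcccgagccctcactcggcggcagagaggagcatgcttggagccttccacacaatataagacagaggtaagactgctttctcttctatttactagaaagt
Elavl4, RE1 left part: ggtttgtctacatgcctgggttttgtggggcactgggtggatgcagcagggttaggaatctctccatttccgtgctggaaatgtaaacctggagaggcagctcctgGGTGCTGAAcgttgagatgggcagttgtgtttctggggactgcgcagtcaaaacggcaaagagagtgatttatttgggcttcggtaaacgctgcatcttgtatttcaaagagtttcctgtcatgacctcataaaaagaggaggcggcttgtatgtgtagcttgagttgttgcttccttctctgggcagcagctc

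The genes of these promoters differed widely between the tissues. Lipc read 11.01, 11.04 and 11.03 in liver, against 3.19, 2.93 and 2.95 in brain, Baat 11.96, 11.71 and 11.90 in liver, against 3.58, 3.96 and 4.21 in brain, and Scg2 3.26, 2.84 and 3.31 in liver, against 10.86, 10.76 and 10.82 in brain. Plg was 166-fold and Cyp3a23-3a1 at least 177-fold higher in liver, and Elavl4 at least 49.4-fold higher in brain. The HNF1 letters were in 3.66% (14) of promoters of genes at least 16-fold higher in liver, none of the 370 at least 16-fold higher in brain, 0.181% of those of uncalled genes and 0.291% of all 11700. The HNF4 letters were in 2.62% (10) of the strongly liver-biased promoters, none of the strongly brain-biased, 0.32% of uncalled and 0.368% of all. The left part of RE1 was in 0.262% (1) of the promoters of genes at least 16-fold higher in liver, 1.35% (5) of those at least 16-fold higher in brain, 0.376% of uncalled and 0.479% of all. The TATA box (TATAAA, sense strand) was in 12.3% of promoters of genes at least 16-fold higher in liver, 4.32% of those at least 16-fold higher in brain and 5.79% of uncalled. The GC box (GGGCGG, both strands) was in 33.2% of the strongly liver-biased, 63% of the strongly brain-biased and 56.1% of uncalled promoters. The cAMP response element (TGACGTCA, both strands) was in 0, 16 (4.32%) and 223 (3.1%) of these classes in the same order. Over all 11700 promoters the TATA box was in 5.8%, the GC box in 57.5% and the cAMP response element in 2.85%. Over the first starts of all 27457 genes that RefSeq lists, these shares were 9.08%, 34.9% and 1.91%. The GC box share of the strongly liver-biased class was thus near that of all RefSeq genes. The letters of C/EBP, another hepatocyte factor (TTGCGCAA, both strands), were in none of the 382 strongly liver-biased promoters, none of the 370 strongly brain-biased, 20 (0.278%) of uncalled and 30 (0.256%) of all. Classes were set by the expression values, and a match of letters describes the sequence and is no evidence of binding.

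**Figure D3:**
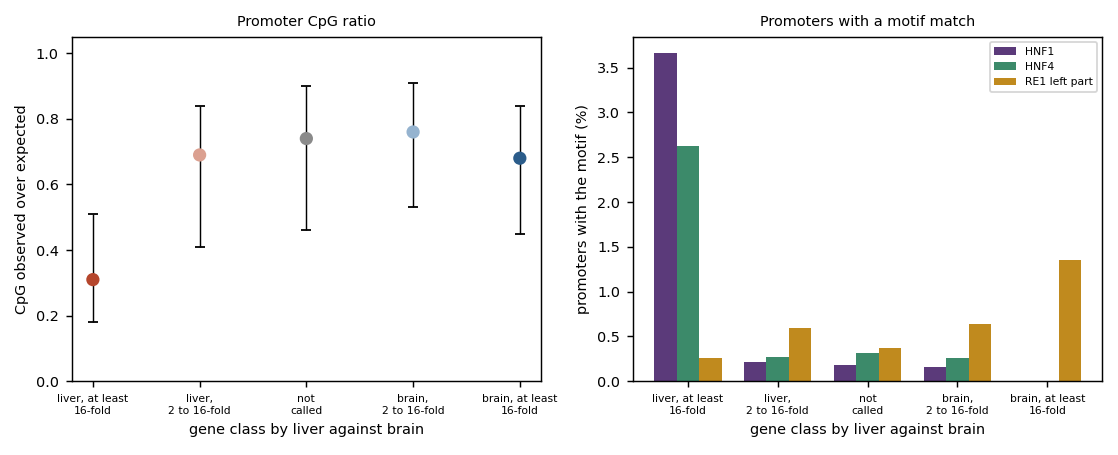
Promoter sequence by expression class, from genes at least 16-fold higher in liver (left) to genes at least 16-fold higher in brain (right). The left panel plots the median CpG observed over expected ratio with its quartiles, lowest at 0.31 in the strongly liver-biased class, and the right panel the percentage of promoters with the letters of the HNF1, HNF4 and RE1 (left part) motifs, at most 3.66%.

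Most plasma protein and complement genes were higher in liver. Of the plasma carriers and acute phase proteins 28 of 30 were higher in liver, with a median difference of 6.93 (6.82 with genes under background at their bound) against 0.19 over all genes. Orm1, an acute phase carrier, was 259-fold higher in liver. Of the complement genes 22 of 26 were higher in liver and none in brain (median 5.35), including Cfi, which inactivates C3b and C4b (242-fold), C8a and C9 of the membrane attack complex (227-fold and 179-fold) and C5 (151-fold). Because tissue pieces were measured, fewer cells of a type and less RNA per cell cannot be told apart here or below.

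Coagulation genes were higher in liver in 18 of 24 cases, and 3 were higher in brain. Prothrombin (F2) was 260-fold, protein C (Proc) 246-fold, factor IX (F9) 241-fold and plasma kallikrein (Klkb1) 231-fold higher in liver. The genes higher in brain are known to be made mainly outside hepatocytes: tissue plasminogen activator Plat (7.34-fold), tissue factor F3 (at least 6.66-fold) and von Willebrand factor Vwf, which endothelial cells make (2.22-fold, a call lost after median centring and after quantile normalization). F3 read 3.62, 3.62 and 2.96 in liver, against 6.15, 6.14 and 6.34 in brain, so the initiating receptor of the cascade and the circulating factors that it triggers were high in different tissues. Serpins divided in the same manner, with 16 higher in liver and 2 in brain of 33. Serpini1, neuroserpin, which inhibits tissue plasminogen activator, read 3.69, 4.32 and 3.75 in liver, against 10.50, 10.59 and 10.56 in brain, and Serpine2, protease nexin 1, was 3.95-fold higher in brain, while thyroxine-binding globulin Serpina7 was at least 104-fold higher in liver.

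Among apolipoproteins and lipoprotein-handling genes, 16 of 20 were higher in liver (14 under every scaling) and only Apod in brain. Apoa1, the main protein of HDL, read 11.87, 11.74 and 11.87 in liver, against 4.07, 3.96 and 4.02 in brain, and Mttp, which loads lipid onto apolipoprotein B, was at least 201-fold higher in liver. Apod, which glia make, had the opposite pattern with 4.36, 4.55 and 4.42 in liver, against 11.46, 11.43 and 11.49 in brain (130-fold higher in brain). Apoe, which both hepatocytes and astrocytes make, was at 13.59 in liver and 12.93 in brain, a difference of 0.66 ± 0.04 that did not reach 2-fold. Clu (clusterin) differed by 0.04 ± 0.04 (limma, adjusted p = 0.389; 95% interval -0.04 to 0.11).

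Some hepatocyte products were high on the brain arrays. Albumin (Alb) read 14.39, 14.22 and 14.32 in liver, against 12.20, 12.23 and 12.20 in brain, and 4.96, 5.36 and 4.90 in lung. Transthyretin (Ttr), which the choroid plexus makes in the brain, read 13.27, 13.36 and 13.35 in liver, against 13.06, 13.13 and 13.08 in brain, and 4.54, 4.65 and 4.35 in lung. Itih3, a hyaluronan-binding plasma protein, had mean levels of 13.26 (liver), 11.31 (brain) and 3.97 (lung), and Apoc3 of 13.58 (liver), 7.71 (brain) and 4.70 (lung). Alb and Itih3 were still called higher in liver (4.28-fold and 3.86-fold); Alb gave the highest level of all probe sets on each liver array, and saturation there was not tested, and Ttr was not called (0.24 ± 0.05). Of the 11 measured hepatocyte markers 8 were called higher in liver. Ttr, Cyp2c11 and Cyp3a2 were not. The summed level of all 11 (log2 of summed linear levels) ranged over 16.27 to 16.33 in liver, 13.75 to 13.81 in brain and 8.04 to 8.23 in lung. That of the 4 measured choroid plexus markers was 6.48 to 6.80 in liver, 7.58 to 7.76 in brain and 8.06 to 8.12 in lung. The source of Ttr RNA on the brain arrays was not tested.

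Levels in brain and lung were compared across the 418 genes of the liver secretion and metabolism lists. The 27 with a liver level of 13 or more had a median of 6.75 in brain and 4.51 in lung, and 18 of them were at least 2-fold higher in brain than in lung, while 7 were at least 2-fold lower. The 46 genes at 12 to 13 in liver had medians of 5.20 in brain and 4.59 in lung, and the 82 at 11 to 12 had 5.54 and 5.30. At lower liver levels the medians were higher in lung. The 67 genes at 10 to 11 had 6.32 in brain and 7.30 in lung. The 76 at 8 to 10 had 6.27 and 6.64, and the 120 under 8 had 4.84 and 5.35. Serpina1 had 6.72 in brain and 6.96 in lung. The part of liver RNA in the brain levels was not tested.

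Metabolic lists of the liver were mostly higher in liver as well, and all but cholesterol synthesis had members called higher in brain. Of the cytochrome P450 genes 33 were higher in liver and 5 in brain of 55 (30 and 3 under every scaling). Cyp2c22 was 291-fold, Cyp2d2 204-fold, the caffeine-metabolising Cyp1a2 194-fold and the arachidonate epoxygenase Cyp2c23 164-fold higher in liver. Cyp46a1, which clears cholesterol from neurons, read 6.90, 7.03 and 6.65 in liver, against 9.02, 9.00 and 8.87 in brain, and the retinoic acid hydroxylase Cyp26b1 was 8.57-fold higher in brain. Among conjugating enzymes 29 were higher in liver and 5 in brain of 45 (27 and 5 under every scaling). Ugt8 is a glucuronosyltransferase relative that makes the galactolipid of myelin, and read 2.95, 2.94 and 2.99 in liver, against 8.83, 8.91 and 8.91 in brain. Sult4a1, a brain sulfotransferase, was 25.1-fold and Gstm5 21-fold higher in brain, whereas Ugt2b15 was at least 219-fold and Ugt2b1 141-fold higher in liver.

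Amino acid breakdown was nearly all on the liver side, with 40 of 44 genes higher there (median 4.62). Otc, of the urea cycle, read 11.55, 11.70 and 11.64 in liver, against 3.83, 3.67 and 4.03 in brain. Tryptophan dioxygenase Tdo2 was 258-fold, Hgd of tyrosine breakdown at least 246-fold and Uroc1 of histidine breakdown at least 211-fold higher in liver. The exception was Bcat1, the cytosolic branched-chain aminotransferase of neurons, with 3.77, 3.00 and 3.68 in liver, against 11.75, 11.73 and 11.71 in brain (304-fold higher in brain). Bile acid genes were higher in liver in 22 of 24 cases (20 under every scaling), among them the uptake carriers Slc10a1 (240-fold) and Slco1b2 (at least 238-fold). The oxysterol hydroxylase Cyp7b1 was 2.07-fold higher in brain, a call lost without liver array 2 or 3 and at median centring.

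Fatty acid oxidation and ketone body genes were higher in liver in 33 of 39 cases and in brain in 5. Slc27a5 (bile acid and fatty acid CoA ligase) was 167-fold, the peroxisomal Ehhadh 81.6-fold and Acox2 51.3-fold higher in liver. Oxct1, which lets tissues other than liver burn ketone bodies, read 6.38, 5.40 and 5.17 in liver, against 10.08, 10.12 and 10.11 in brain, and the neuronal Cpt1c was 5.62-fold and Acot1 at least 2.26-fold higher in brain. Gluconeogenesis and glycogen genes were higher in liver in 13 of 19 cases, led by Fbp1 (265-fold) and Pck1 (166-fold), and 3 were higher in brain: the phosphorylases Pygb (20.6-fold) and Pygm (3.86-fold) and the ubiquitous phosphatase G6pc3 (3.46-fold).

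Cholesterol synthesis genes were higher in liver in 17 of 22 cases (11 under every scaling), with smaller differences (median 1.56). Ebp and Tm7sf2, which act late in the pathway, were 18.3-fold and 13.9-fold higher in liver. Alcohol and aldehyde dehydrogenases were higher in liver in 16 of 21 cases (14 under every scaling), led by Adh1c (97.5-fold), and 3 were higher in brain, led by Aldh3b1 (7.84-fold). Peroxisomal genes were higher in liver in 20 of 29 cases (13 under every scaling). Urate oxidase Uox was 103-fold and glycolate oxidase Hao1 114-fold higher in liver, while the receptor relative Pex5l, which controls neuronal HCN channels, was 12.6-fold and the fatty acid importer Abcd2 9.8-fold higher in brain.

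**Figure D4:**
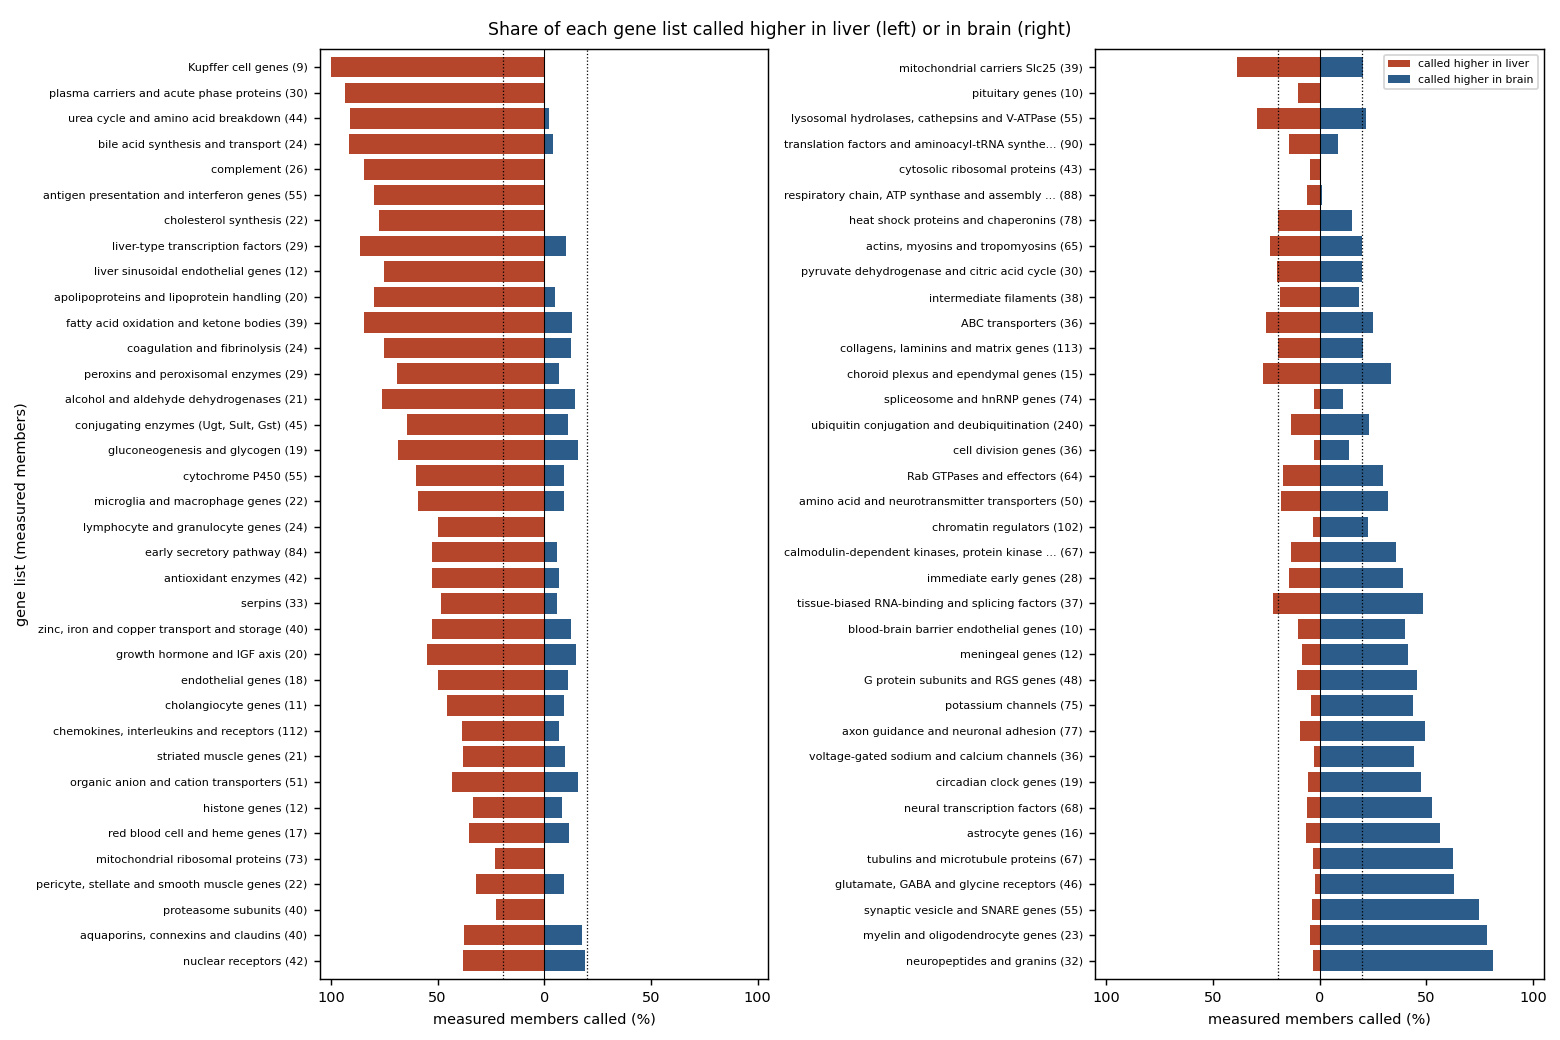
Percentage of the measured members of each gene list called higher in liver (bars to the left) or in brain (bars to the right), with the number measured in brackets, and dotted lines at the shares over all genes, 19.3% and 20.0%. Lists are ordered by the difference of both percentages, from Kupffer cell genes (9 of 9 higher in liver, 8 under every scaling) to neuropeptides and granins (26 of 32 higher in brain).

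Synaptic genes were mostly higher in brain. Of synaptic vesicle and SNARE genes 2 were higher in liver and 41 of 55 in brain (1 and 39 under every scaling, median -2.88). Those higher in liver were Syngr1 (5.19-fold) and Syt15 (2.01-fold, a call lost without liver array 1 or without brain array 2 or 3, and under the hybridisation controls). Complexin Cplx1 read 4.05, 4.33 and 4.38 in liver, against 12.03, 12.06 and 12.01 in brain, and the calcium sensor Syt4 was at least 103-fold and the clathrin adaptor Snap91 75.8-fold higher in brain. Of neuropeptides and granins 26 of 32 were higher in brain. Scg5, a chaperone of prohormone convertase, was 308-fold and Scg3 148-fold higher in brain, while Nucb2, precursor of nesfatin, was 7.29-fold higher in liver.

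Receptors and channels were brain-biased in part of their members. Glutamate, GABA and glycine receptors were higher in liver in 1 case and in brain in 29 of 46, and potassium channels in liver in 3 and in brain in 33 of 75 (2 and 30 under every scaling). Gabra6, a GABA receptor subunit of cerebellar granule cells, read 2.77, 2.89 and 2.82 in liver, against 10.61, 10.62 and 10.63 in brain, and Gria2, an AMPA receptor subunit, was 96.3-fold, Gabrb2 at least 124-fold and the glycine receptor subunit Glrb at least 109-fold higher in brain. The potassium channels Kcnc2 and Kcnc1 of fast-firing neurons were 85.9-fold and 48-fold and the channel partner Kcnip4 62.1-fold higher in brain. Kcnj15 and Kcnj8 were 6.14-fold and 4-fold higher in liver under every scaling. Voltage-gated sodium and calcium channels were higher in liver in 1 case and in brain in 16 of 36 (0 and 14 under every scaling), led by Scn2a (at least 69.1-fold) and Scn1a (54.9-fold).

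Intracellular signalling families had members on each side. G protein subunits and RGS genes were higher in liver in 5 cases and in brain in 22 of 48 (3 and 21 under every scaling), with Gng3 (98.9-fold) and Rgs4 (70.2-fold) highest toward brain. Rgs16, which ends G protein signals, read 9.69, 9.71 and 9.62 in liver, against 7.02, 6.94 and 6.83 in brain, and Rgs18 of blood cells was 4.47-fold higher in liver. Kinase and MAP kinase phosphatase genes were higher in liver in 9 cases and in brain in 24 of 67 (3 and 22 under every scaling). Camk2b and Camk2a, the kinases of postsynaptic densities, were 54.9-fold and 39.3-fold and protein kinase C beta (Prkcb) 29.2-fold higher in brain, while Map2k3 of the p38 pathway was 4.52-fold and Dusp23 5.77-fold higher in liver.

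Glial genes were likewise higher in brain. Myelin and oligodendrocyte genes were higher in brain in 18 of 23 cases (median -4.71, or -4.45 with genes under background at their bound), with the tight junction protein of myelin Cldn11 at 3.72, 4.08 and 3.53 in liver, against 11.92, 11.99 and 11.98 in brain. Gjb1 (connexin 32), a channel of both hepatocytes and oligodendrocytes, was the only member of that list called higher in liver, with 11.27, 11.22 and 11.23 in liver, against 6.56, 6.41 and 6.42 in brain. Astrocyte genes were higher in brain in 9 of 16 cases, among them S100b (282-fold), the glutamate transporter Slc1a3 (201-fold) and Aldoc (162-fold). Aldh1l1, a folate enzyme that marks astrocytes within the brain, was 16.3-fold higher in liver, where hepatocytes make it, with 11.32, 11.34 and 11.32 in liver, against 7.30, 7.29 and 7.31 in brain.

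All 10 neuron markers and all 6 measured oligodendrocyte markers were called higher in brain, and 5 of 6 astrocyte markers. The sixth, the glutamate transporter Slc1a2, differed by 0.62 ± 0.10 on its brightest probe set and by -0.90 ± 0.11 on the other, neither past 2-fold. The summed level of the neuron markers was 7.97 to 8.37 in liver, 14.56 to 14.58 in brain and 7.70 to 7.77 in lung. Axon guidance and adhesion genes were higher in liver in 7 cases, among them the ephrin Efna1 (11.8-fold), Sema4g (6.2-fold), Epha2 (4.51-fold) and Ephb4 (3.85-fold), and in brain in 38 of 77, such as Lingo1 (87.7-fold) and Nrcam (34.5-fold). Under every scaling 4 of these were higher in liver and 34 in brain.

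Among cytoskeletal genes, the tubulin and microtubule list alone had counts far from the shares over all genes, 19.3% (liver) and 20.0% (brain). Tubulin and microtubule genes were higher in liver in 2 cases, neither under every scaling, and in brain in 42 of 67 (39 under every scaling), with Stmn2 (175-fold), Map1b (172-fold) and Dclk1 (88.3-fold). Intermediate filament genes were called in 7 (liver) and 7 (brain) of 38 cases (4 and 5 under every scaling). The keratins of simple epithelia led the liver side, with Krt18 at 10.70, 10.71 and 10.70 in liver, against 4.98, 5.14 and 5.35 in brain and Krt8 42.4-fold higher in liver. The neurofilaments led the brain side, with Nefm at 3.66, 3.54 and 4.23 in liver, against 11.11, 11.14 and 11.12 in brain, Nefl 157-fold and Nefh 145-fold higher in brain. Actin, myosin and tropomyosin genes were called in 15 (liver) and 13 (brain) of 65 cases (3 and 10 under every scaling), with profilin 2 (Pfn2) 92.4-fold and Myh10 36.3-fold higher in brain.

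Within enzyme and transporter families, one isoform was often high in liver and its relative in brain. Of 40 pairs of isoforms, listed with earlier results of these data known, both members were measured in 31. In 15 the members were called in opposite directions, and in 13 of these under every scaling. The member higher in liver was in all 15 the one listed as the liver side, an order written with those results known. The exceptions were Pgam2 with Pgam1 and Klc4 with Klc1, whose liver-side calls (2.14-fold and 2.22-fold) were lost under the hybridisation controls, that of Pgam2 also without liver array 3. In 12 pairs a single member was called, in 3 both members were called in the same direction, and in 1 (Cox6a2 and Cox6a1) neither.

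Glucose entry and use gave several such pairs. The hepatocyte transporter Slc2a2, given above, was paired with the neuronal Slc2a3, which read 4.32, 4.19 and 4.34 in liver, against 8.19, 8.24 and 8.37 in brain, and with the barrier and glial Slc2a1 (9.11-fold higher in brain). Lactate dehydrogenase A (Ldha) read 12.15, 12.12 and 12.13 in liver, against 10.44, 10.58 and 10.49 in brain, whereas the B subunit (Ldhb) read 6.72, 6.56 and 6.68 in liver, against 12.54, 12.54 and 12.49 in brain. Glycogen phosphorylase had Pygl 44.2-fold higher in liver and Pygb 20.6-fold higher in brain, and pyruvate dehydrogenase kinase had Pdk4 12.9-fold higher in liver and Pdk3 5.26-fold higher in brain. For phosphofructokinase and enolase the brain forms Pfkp and Eno2 were 39.4-fold and 128-fold higher in brain, while Pfkl and Eno1 differed by -0.66 ± 0.10 and -0.40 ± 0.04.

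Lipid and amino acid enzymes gave further pairs. Cpt1a, the mitochondrial gate of fatty acids, was 5.58-fold higher in liver and Cpt1c 5.62-fold higher in brain. Acsl1 was 14.1-fold higher in liver and Acsl6 28.1-fold higher in brain, Fabp1 112-fold higher in liver and Fabp3 5.2-fold higher in brain, and Acot12 26-fold higher in liver and Acot7 3.64-fold higher in brain. Methionine adenosyltransferase had Mat1a at 12.28, 12.23 and 12.25 in liver, against 4.76, 5.08 and 4.91 in brain, and Mat2a at 7.83, 7.76 and 7.66 in liver, against 9.38, 9.45 and 9.45 in brain. The calls of Mat2a and Acot7 were lost when all probe sets of a gene were averaged. The arginase Arg1 was 62.7-fold higher in liver, with Arg2 at -0.82 ± 0.14, and the glycogen synthase Gys2 at least 27.3-fold higher in liver, with Gys1 at -0.78 ± 0.10.

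Pairs outside metabolism included regulators and channels. Ptbp1, the splicing repressor of non-neuronal cells, read 8.65, 8.69 and 8.68 in liver, against 6.81, 6.71 and 6.91 in brain, and its neural relative Ptbp2 read 5.59, 5.70 and 5.88 in liver, against 8.84, 8.68 and 8.75 in brain. The water channels Aqp9 and Aqp4 were 19.7-fold higher in liver and at least 288-fold higher in brain, and the connexins Gjb1 and Gja1 27.4-fold higher in liver and 8.1-fold higher in brain. The elongation factor Eef1a1 differed by -0.02 ± 0.05 (95% interval -0.13 to 0.08), while Eef1a2, its form in neurons and muscle, read 6.54, 5.07 and 6.63 in liver, against 10.47, 10.52 and 10.54 in brain. The monocarboxylate transporters Slc16a1 and Slc16a7 were both higher in liver (2.37-fold, lost under the hybridisation controls and when probe sets were averaged, and 6.34-fold), and Atp1b1 and Atp1b2 of the sodium pump both in brain (13.5-fold and 47.9-fold), as were the 14-3-3 genes Ywhab and Ywhah (4.3-fold and 10.7-fold).

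**Figure D5:**
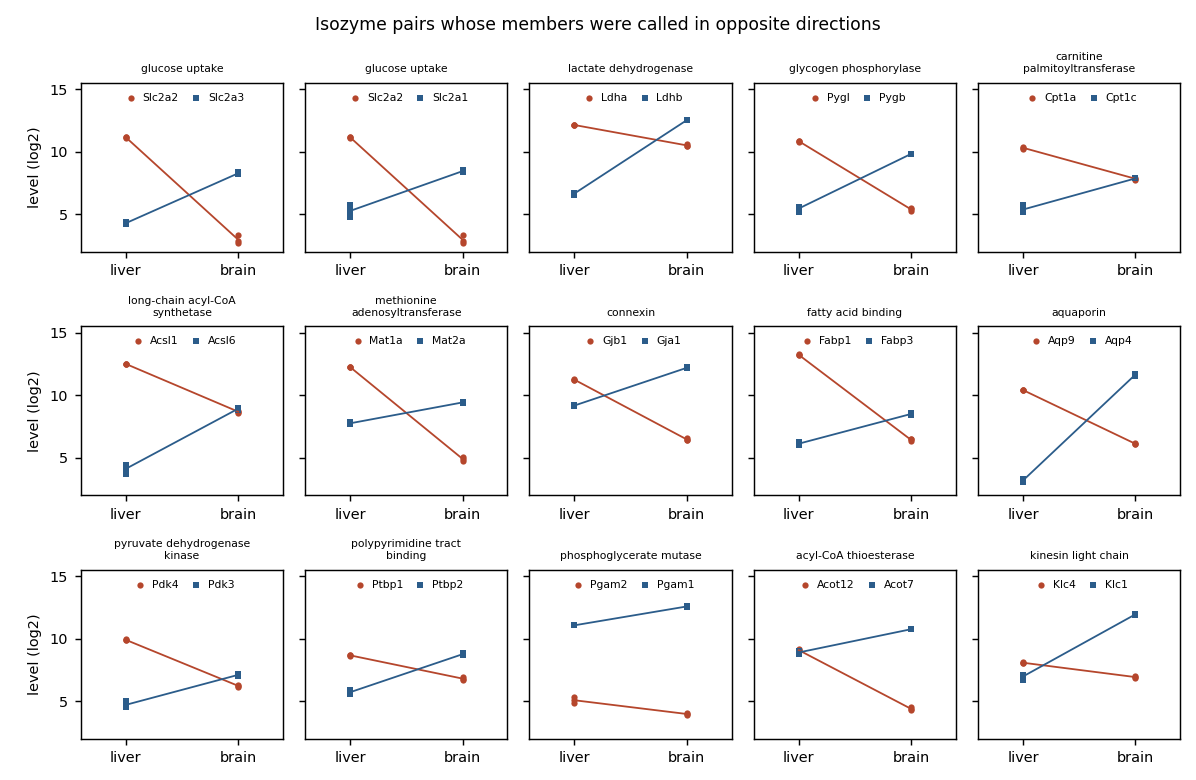
Level on each liver and brain array (log2) of both members of the 15 isozyme pairs called in opposite directions, with lines joining the tissue means (circles for the liver-side member, squares for the brain-side member). In each panel the liver-side line falls from liver to brain and the other one climbs; levels of different genes are not on 1 scale, so only the slopes can be compared.

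Several sets of machinery that all cells use had few called members. Of 43 cytosolic ribosomal protein genes 2 were called, Rps4y2 (5.5-fold higher in liver) and Rps13 (2.22-fold, lost without liver array 2 and under the hybridisation controls), and the median difference was -0.08, with a sign that changed with the scaling. Of respiratory chain and ATP synthase genes 5 were higher in liver and 1 in brain of 88 (2 and 1 under every scaling, median 0.03). That single gene, Atp5if1, the inhibitor of ATP synthase in reverse, read 8.09, 8.07 and 7.97 in liver, against 10.06, 10.14 and 10.13 in brain, and its call was lost when its probe sets were averaged. Against these 2 of 43 and 6 of 88, 39.3% of all genes were called.

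Mitochondrial ribosomal protein genes were higher in liver in 17 of 73 cases, near the share over all genes, but in none under every scaling. Their median of 0.59 turned to -0.14 under the hybridisation controls. Proteasome genes were higher in liver in 9 of 40 cases (6 under every scaling), near the share over all genes and led by the immunoproteasome. Its catalytic subunits Psmb8 and Psmb9 read 10.18, 10.18 and 10.13 in liver, against 4.63, 5.02 and 4.73 in brain, and 9.62, 9.67 and 9.63 in liver, against 5.01, 5.36 and 4.77 in brain. The activators Psme1 and Psme4 were 4.98-fold and 4.58-fold higher in liver. Spliceosome and hnRNP genes were called in 2 (liver) and 8 (brain) of 74 cases, of which 0 and 2 held under every scaling.

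Translation factors and aminoacyl-tRNA synthetases were called in 13 (liver) and 8 (brain) of 90 cases (3 and 7 under every scaling). Besides Eef1a2, the alternative forms Eif5a2 and Gspt2 were 38.7-fold and 12.1-fold higher in brain. Eif4ebp1 and Eif4ebp2, which hold back cap-dependent translation, were 4.1-fold and 3.65-fold higher in liver. Pyruvate dehydrogenase and citric acid cycle genes were called in 6 cases each way of 30, near the shares over all genes. Idh1, the cytosolic NADP-dependent enzyme, read 12.05, 12.09 and 12.05 in liver, against 9.04, 8.97 and 8.94 in brain, while Idh3a of the mitochondrial cycle was 5.16-fold and citrate synthase (Cs) 3.54-fold higher in brain, although averaging the probe sets of Cs ended its call.

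The early secretory pathway had 44 of 84 genes higher in liver and 5 in brain (24 and 3 under every scaling). The exit-site protein Sec16b read 9.14, 9.15 and 9.16 in liver, against 3.76, 3.74 and 3.57 in brain, and the coat subunit Sec24d was 16.5-fold, the disulfide isomerase Pdia5 16.6-fold and the chaperone Dnajc3 16.8-fold higher in liver. Alternative forms were higher in brain, such as Sec61a2 of the translocon (2.8-fold). Lysosomal genes were called in 16 (liver) and 12 (brain) of 55 cases (9 and 12 under every scaling). The hydrolases Ctsc (37.7-fold), Lipa (10.7-fold) and Gusb (6.43-fold) led toward liver, and subunits of the proton pump led toward brain, with Atp6v1g2 at 5.38, 5.18 and 5.31 in liver, against 10.63, 10.62 and 10.68 in brain and Atp6v1b2 5.8-fold higher there.

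Rab genes were higher in liver in 11 cases, led by Rab38 (13-fold) and the epithelial Rab17 (9.56-fold), and in brain in 19 of 64, led by Rab6b (124-fold) and the synaptic vesicle Rab3a (43.5-fold); 6 and 16 of these calls held under every scaling. Ubiquitin genes were called in 32 (liver) and 56 (brain) of 240 cases, 11 and 44 under every scaling. The liver count was below and the brain count near the share over all genes. The neuronal hydrolase Uchl1 read 4.44, 3.76 and 3.86 in liver, against 11.18, 11.36 and 11.32 in brain, and the interferon-responsive Trim14 and Ube2l6 were 37.7-fold and 13.9-fold higher in liver. Chaperones were called in 15 (liver) and 12 (brain) of 78 cases, at or below the shares over all genes (7 and 8 under every scaling). The clathrin-uncoating auxilin Dnajc6 was 169-fold higher in brain. Antioxidant genes were higher in liver in 22 of 42 cases (12 under every scaling), including catalase Cat (9.76-fold) and Gpx1 (11.5-fold). The growth inhibitory metallothionein of brain, Mt3, read 6.56, 6.35 and 6.31 in liver, against 12.14, 12.27 and 12.21 in brain.

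Transporter families had members on each side. Zinc, iron and copper genes were higher in liver in 21 of 40 cases (18 under every scaling). The iron hormone hepcidin (Hamp) read 11.61, 11.75 and 11.64 in liver, against 5.38, 5.13 and 4.65 in brain, and the genes that control it, Hjv and Tfr2, were at least 82.2-fold and at least 76.7-fold higher in liver. The zinc importer Slc39a10 (13.8-fold) and the synaptic vesicle zinc transporter Slc30a3 (7.03-fold) were higher in brain. Organic anion and cation transporters were called in 22 (liver) and 8 (brain) of 51 cases (16 and 6 under every scaling), with Slc22a7 at least 91.4-fold higher in liver and Slc17a6 and Slc17a7, which fill vesicles with glutamate, 56.3-fold and 25.6-fold higher in brain.

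Amino acid and neurotransmitter transporters were higher in liver in 9 cases and in brain in 16 of 50 (6 and 15 under every scaling). Slc38a4, a hepatocyte amino acid carrier, read 11.54, 11.60 and 11.59 in liver, against 3.32, 3.74 and 3.56 in brain, whereas its relative Slc38a1 was 30.6-fold higher in brain. Mitochondrial carriers were called in 15 (liver) and 8 (brain) of 39 cases (9 and 7 under every scaling), with the ornithine carrier Slc25a15 24.6-fold and citrin (Slc25a13) 19.2-fold higher in liver and the ADP/ATP carrier Slc25a4 at 7.03, 7.26 and 7.12 in liver, against 11.97, 12.04 and 11.94 in brain. ABC transporters were called in 9 cases each way of 36 (in liver 6 and in brain 7 under every scaling), with the bile salt pump Abcb11 133-fold higher in liver and Abca5 5.44-fold higher in brain. Aquaporins, connexins and claudins were called in 15 (liver) and 7 (brain) of 40 cases (10 and 6 under every scaling), with Aqp8 66.1-fold higher in liver and the astrocyte connexin Gjb6 at least 46.1-fold higher in brain.

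Gene regulators were divided as well. Of liver-type transcription factors 25 of 29 were higher in liver (23 under every scaling). Hnf4a read 11.06, 10.98 and 11.01 in liver, against 3.80, 3.91 and 3.69 in brain, Onecut1 was 111-fold and the bile acid receptor Nr1h4 66.4-fold higher in liver. The 3 members higher in brain were the related PAR bZIP factors Dbp (4.96-fold), Hlf (3.86-fold) and Tef (2.21-fold, lost at median centring and quantile normalization and when probe sets were averaged). Dbp, an output of the circadian clock, read 5.62, 5.42 and 4.80 in liver, against 7.52, 7.68 and 7.55 in brain. Clock genes were higher in brain in 9 of 19 cases, and Nfil3, which opposes Dbp, was the single one higher in liver (5.97-fold). The sources used here do not give the hour at which tissues were taken.

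Neural transcription factors were higher in liver in 4 cases and in brain in 36 of 68 (1 and 33 under every scaling), led by Neurod1 (83.5-fold), Mef2c (35.1-fold) and Sox2 (32.1-fold), and Hes6 was 7.78-fold higher in liver. Nuclear receptors were called in 16 (liver) and 8 (brain) of 42 cases (11 and 7 under every scaling), with Nr1h3 (36.5-fold) and Nr5a2 (32.9-fold) toward liver and Nr2f1 (7.59-fold) toward brain. Immediate early genes were higher in liver in 4 cases and in brain in 11 of 28. Nr4a3 read 2.87, 3.20 and 3.19 in liver, against 8.69, 8.68 and 8.52 in brain, and Egr2 was 14.6-fold higher in brain, while Zfp36 and Myc were 6.3-fold and 5.08-fold higher in liver.

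RNA-binding and splicing factors known for tissue bias were called in 8 (liver) and 18 (brain) of 37 cases (6 and 16 under every scaling). A1cf and Apobec1, which edit apolipoprotein B mRNA, were 22-fold and at least 19.5-fold higher in liver, and Rbfox1 (98.4-fold) and Celf4 (112-fold) higher in brain. Chromatin regulators were higher in liver in 3 of 102 cases (none under every scaling). They were higher in brain in 23, near the share over all genes (14 under every scaling). Smarca1 was 10.8-fold and Cbx6 9.73-fold higher in brain. Histone genes were called in 4 (liver) and 1 (brain) of 12 cases (2 and 1 under every scaling), and cell division genes in 1 and 5 of 36 (0 and 2 under every scaling), with Cdk5, which acts in neurons, 2.61-fold higher in brain.

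The growth hormone and IGF axis was higher in liver in 11 of 20 genes, all under every scaling. The growth hormone receptor (Ghr) read 11.87, 11.67 and 11.84 in liver, against 4.04, 4.17 and 4.63 in brain, the prolactin receptor (Prlr) 12.09, 12.12 and 12.12 in liver, against 5.06, 5.29 and 5.09 in brain, and Igfals and Igfbp1, which bind IGF in plasma, were 74.4-fold and 75.9-fold higher in liver. The receptor Igf1r was 9.29-fold, Igf2 10.8-fold and Igfbp5 8.47-fold higher in brain, the calls of Igf2 and Igfbp5 being lost when all probe sets of each gene were averaged. The hormone itself, Igf1, named after its values were seen, averaged 12.51 in liver and 7.01 in brain.

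The immune genes that were called were mostly higher in liver. Of antigen presentation and interferon genes 44 of 55 were higher in liver and none in brain (32 under every scaling, median 2.17), and all 55 differences were positive. The class I gene RT1-CE5 read 8.26, 8.33 and 8.34 in liver, against 2.99, 2.95 and 3.07 in brain, and Ifitm1 was 26.9-fold higher in liver. Chemokine, interleukin and receptor genes were higher in liver in 43 of 112 cases (23 under every scaling) and in brain in 8, and 61 were not called. Ccl9 and Ccl6, chemokines of myeloid cells, were 184-fold and 62.4-fold higher in liver, while fractalkine Cx3cl1, through which neurons signal to microglia, read 5.65, 5.76 and 6.17 in liver, against 9.56, 9.48 and 9.53 in brain.

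Genes of resident macrophages were divided between the tissues. Kupffer cell genes were higher in liver in 9 of 9 cases (8 under every scaling), including Clec4f, a lectin of rodent Kupffer cells, with 9.78, 9.83 and 9.75 in liver, against 4.45, 4.21 and 4.60 in brain, and Cd5l (at least 75.7-fold). The list also holds C6 and Nr1h3, which are counted in the complement and nuclear receptor lists too, so the count is not of Kupffer cell markers alone. Microglia and macrophage genes, which both populations share in part, were higher in liver in 13 of 22 cases (10 under every scaling), such as Cd14 (51.2-fold) and Mrc1 (14.7-fold). The microglial P2ry12 averaged 4.09 in liver and 7.38 in brain, and Tmem119 was 2.09-fold higher in brain, a call lost without liver array 2, at median centring and at quantile normalization. Csf1r, needed by both populations, differed by 0.66 ± 0.06. Lymphocyte and granulocyte genes were higher in liver in 12 of 24 cases, of which 5 held under every scaling.

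Vascular and connective tissue genes were less uniform. Sinusoidal endothelial genes were higher in liver in 9 of 12 cases, with Stab2, a hyaluronan scavenger, at 8.13, 8.25 and 8.32 in liver, against 4.02, 4.24 and 4.48 in brain. General endothelial genes were higher in liver in 9 and in brain in 2 of 18 cases, but in 3 and none under every scaling (Kdr was 7.37-fold higher in liver). Of blood-brain barrier genes 4 of 10 were higher in brain, with Cldn5 26.9-fold and the thyroid hormone carrier Slco1c1 34.9-fold higher there, and the barrier lipid transporter Mfsd2a was 4.95-fold higher in liver. Pericyte, stellate and smooth muscle genes were higher in liver in 7 of 22 cases (5 under every scaling), with Lrat, which makes the retinyl esters of stellate cells, at least 9.85-fold and Colec11 35.5-fold higher there, and in brain in 2 (Rgs5, 3.31-fold, and Reln, 2.83-fold).

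Matrix genes were called in 22 (liver) and 23 (brain) of 113 cases, near the shares over all genes, but in 9 and 19 under every scaling. Fibronectin Fn1 was 17.8-fold higher in liver. Sparcl1, an astrocyte protein, read 7.55, 7.73 and 7.49 in liver, against 12.94, 13.03 and 13.04 in brain. Cholangiocyte genes were called in 5 (liver) and 1 (brain) of 11 cases (3 and 1 under every scaling). The duct keratin Krt19 stood at 4.77 in liver and 3.51 in brain (a call lost under the hybridisation controls), Krt7 at 4.55 in liver and 4.03 in brain, and Epcam was 10.6-fold higher in liver. Choroid plexus and ependymal genes were called in 4 (liver) and 5 (brain) of 15 cases. Those higher in liver were Prlr, Cldn2, Cldn1 and Aqp1, all under every scaling. Otx2 was 5.04-fold higher in brain (lost when probe sets were averaged) and Folr1 2.31-fold (lost at median centring). Kl stood at 3.05 in liver and 3.24 in brain, under the background level of 3.48. Meningeal genes were higher in brain in 5 of 12 cases, and Slc6a13, a GABA transporter of leptomeninges and hepatocytes, was 18-fold higher in liver.

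Genes of blood, pituitary and striated muscle were examined as signs of adjacent tissue. Red blood cell and heme genes were called in 6 (liver) and 2 (brain) of 17 cases. Beta globin (Hbb) read 12.24, 12.24 and 12.27 in liver, against 11.36, 11.40 and 11.35 in brain, below 2-fold, and Alas1, the heme synthesis enzyme of hepatocytes, was 6.51-fold higher in liver. Pituitary genes were called in 1 of 10 cases (Lhb, 2.16-fold higher in liver, lost under the hybridisation controls), and Gh1 and Prl stood at 5.23 in liver and 4.64 in brain, and 3.02 in liver and 2.73 in brain. Striated muscle genes were called in 8 (liver) and 2 (brain) of 21 cases (2 and 2 under every scaling), with Ckm at 6.37 in liver and 4.15 in brain and the ryanodine receptor Ryr2, used by heart and neurons, at least 59.6-fold higher in brain.

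A number of genes were read in opposite directions by different probe sets. Of 4525 genes with several probe sets, 31 had probe sets called each way, and in 6 both calls held under every scaling. For Tpm3, a tropomyosin with alternative exons and 12 probe sets, 1 probe set read 8.33, 8.47 and 8.32 in liver, against 5.72, 6.17 and 6.11 in brain, and another read 4.73, 5.34 and 5.27 in liver, against 8.08, 8.17 and 8.25 in brain. For Lrrfip1 the differences were 3.65 ± 0.07 and -2.07 ± 0.08, for Araf 2.55 ± 0.07 and -1.95 ± 0.08, and for the long non-coding RNA Oip5-as1 1.98 ± 0.08 and -2.96 ± 0.04. These 4 held under every scaling. The widest gap was in Masp2, of the lectin complement pathway, with 6.50 ± 0.09 and -1.14 ± 0.07, and in Cd200, Kcna2 and Dlg4 the opposing probe set read at most 5.78 on any array. The statements on such genes hold for the probe set used, not for all their transcripts.

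Some genes were bright in both tissues. Of 318 genes at 10 or more in both, a choice that itself limits the differences, 46 were called, 15 higher in liver and 31 higher in brain. The 5 with the smallest differences were the complex I subunit Ndufb2 (10.46 in liver and 10.46 in brain), the citric acid cycle subunit Idh3b (10.09 in liver and 10.09 in brain), the ribosome biogenesis factor Nsa2 (10.01 in liver and 10.02 in brain), Qdpr, which regenerates tetrahydrobiopterin (11.24 in liver and 11.24 in brain), and the ATP synthase subunit Atp5f1c (11.83 in liver and 11.82 in brain). The 95% interval of the difference was -0.09 to 0.08 for Qdpr. Of 4235 genes below 6 in both tissues, 384 were called higher in liver and 224 higher in brain, and 47 and 140 of these held under every scaling. The curve through the hybridisation controls shifts all differences at such levels toward brain, so these last counts depend on it.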

How the data were processed

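Liver, brain and lung RNA was measured on Affymetrix rat GeneChip arrays, and 31042 probe sets other than the 57 control probe sets were tested. The authors deposited log2 levels from RMA, as the series' design text and the submitters' processing notes state (its version was not given in the sources used here). The method equalises arrays at the level of single probes, before probe sets are summarised, and the deposited array medians still differed between the tissues. It keeps no detection call, and the number of arrays limits the precision. No arrays were identical.

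The platform annotation named 1 gene for 20826 probe sets, several for 436 and none for 9780. Its gene IDs were looked up in RefSeq's GRCr8 table, where 68 had no match and 0 symbols changed. Each of 14217 genes was read by its probe set with the highest mean over all 42 arrays. One model in limma (version 3.58.1, under R 4.3.3) with 14 group means (28 residual and 4.56 prior degrees of freedom) gave the contrast liver minus brain, called at adjusted p under 0.05 (Benjamini-Hochberg) and at least 2-fold. On simulated arrays of 31042 probe sets drawn for this contrast, 0% of changes of 1.5-fold, 98% of 2.5-fold and 100% of 4-fold and 16-fold were called, with 0 false calls. The 2-fold limit and the small spread between arrays largely fixed these results in advance. Unchanged probe sets had the same mean in every simulated group, and no shift of scale between tissues was drawn. The count of false calls therefore does not measure errors that come from scaling or from differences between animals.

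Members, gene lists and isozyme pairs were chosen with earlier results of these data known. Lists are described by counts and medians beside those over all genes. Named were the 10 largest differences each way, up to 4 called members of each list each way (the 2 largest where none was called), members of the pairs, cell type markers, the 5 smallest differences among bright genes, the 8 widest conflicts between probe sets, and the 10 secreted liver proteins brightest in brain and 10 brain-list genes brightest in liver. Other genes named were chosen after their values were seen. Alternatives covered the arrays in the fit, a variance trend, 4 other scalings or backgrounds, a filter on dim probe sets (5.73), the fold limit, averaging the probe sets of a gene, and leaving out each array. Python 3.11.15 with matplotlib 3.10.9 drew the figures. Promoter sequences are RefSeq's (GRCr8).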

Additional observations from a re-analysis of the deposited data

Results flagged for a closer look

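On the lung arrays, which lie outside the comparison of liver with brain, the Y-linked gene Eif2s3y had a mean level of 8.97 (log2), against 3.13 in liver and 2.48 in brain, which stood out in data the comparison does not use. Xist had 2.88 in lung, 11.09 in liver and 11.25 in brain on its brightest probe set, and its other 3 probe sets read at most 3.66 on any lung array and at least 7.05 on any liver or brain array. Of the other Y-linked genes, Uty had 8.30 in lung, 8.88 in liver and 7.88 in brain on its brighter probe set, which did not separate the tissues in the same manner. Sry had 4.24 in lung, 3.89 in liver and 3.34 in brain. Its levels, like those of Tspy1 and the dimmer Uty probe set, lie within the range of the bacterial probe sets (2.39 to 4.64) and cannot separate the tissues. The cause was not tested.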

How the results depend on the processing

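The counts of 10393 called probe sets (4539 higher in liver, 5854 higher in brain) were equal with only the 6 liver and brain arrays in the fit and with a variance trend. They ranged over 10366 to 10533 called, 4534 to 4636 higher in liver and 5821 to 5897 higher in brain when each array was left out in turn. A 4-fold limit gave 4897 called, 1918 higher in liver and 2979 higher in brain. The curve through the hybridisation controls gave 2248 higher in liver and 11256 higher in brain, and 1063 list members higher in brain; it rests on 4 control transcripts, of which bioB (8.58 to 8.63 in liver, 7.64 to 7.84 in brain) and bioC were higher in liver, and bioD and cre (13.25 to 13.28 in liver, 13.66 to 13.72 in brain) lower. Of 551 named genes, 459 kept their call or lack of one under all 14 settings, and of the 506 called, 45 lost the call under that curve, 13 at median centring, 23 when probe sets were averaged and 9 without 1 of the arrays. Araf changed sign when its probe sets were averaged, to 0.30. No paired analysis was possible because the labels give no replicate numbers. Small differences depend on the scaling. Levels under 3.48 allow only a bound on the fold, and this may also hold for levels up to 4.64.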

Other observations

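Chromosome X held a larger share of genes higher in brain than any autosome. Of its 386 named genes 14.2% were called higher in liver and 28.5% higher in brain, against 15% to 23.5% higher in liver and 15.6% to 25% higher in brain on the autosomes. The 3 dimmer probe sets of Xist were each called higher in liver, by 2.12 to 2.41, while its brightest differed by -0.16 ± 0.07 (limma, adjusted p = 0.0285), so the RNA of 1 locus gave different answers by probe set.

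Many probe sets without a single gene name were called. Of 10216 probe sets with no single gene name, 27.8% were called, 893 higher in liver and 1944 higher in brain, whereas 36.3% of named probe sets were called.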
